A study of Homo sapiens with 11 samples.

Results

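Interferon-stimulated antiviral genes are the genes that cells switch on when they sense a virus or are exposed to interferon. A list of 40 of them, named by symbol, was followed through MDA-MB-468 cells treated with tumour necrosis factor (TNF), with the plant flavone apigenin, with both or with neither. A gene was measured by the array probe set annotated with its symbol and no other, and all 40 had exactly 1 such probe set. Of the 40 genes, 37 were tested, among 15865 genes tested in all. The 3 others, the DNA sensor gene IFI16, MX2 and EPSTI1, lay at or below background in every group. MDA-MB-468 is a triple-negative breast cancer line derived from a pleural effusion. The 4 groups were untreated control (3 arrays), TNF at 40 ng/ml (3 arrays), apigenin at 40 µM (2 arrays) and TNF plus apigenin at the same doses (3 arrays), each after 24 h. All arrays come from 1 cell line grown in 1 kind of serum-supplemented medium, and the treatments were prepared in buffered salt solution. The labels do not say whether replicates were separate cultures, so p-values reflect array-to-array spread alone, and that spread may be technical.

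Type I interferons are secreted when sensors such as RIG-I and MDA5 detect foreign or misplaced RNA. They bind a receptor that signals to the nucleus, where a complex that includes IRF9 binds interferon-stimulated response elements in the promoters of the genes described here. The products then block virus entry, degrade or sequester viral RNA, stop translation or hold virus at the membrane. TNF acts mainly through NF-kB, which binds kappa B sites, and in some cells it also induces a low level of interferon beta. Many tumour cells carry a low interferon-stimulated program without added interferon.

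Promoter windows are given first, because response elements are the sequence feature by which these genes are known. Windows came from RefSeq (GRCh38.p14) and ran from 250 bases before to 50 bases after each annotated start. Of the 40 genes, 32 had an entry, with 44 promoters in all. The windows of IFIT2, IFITM2, OAS2, OASL, MX2, DHX58, USP18 and TRIM22 were not used here. The core of the response element was searched as GAAANNGAAA on both strands, and a core spaced by 1 base, added after the sequences had been seen, as GAAANGAAA. Below are the 250 bases before the first listed start of 6 genes whose values changed in at least 1 comparison, chosen to show both kinds of core. They are written 5′ to 3′ on the gene's strand, with capitals on matches to either core.
IFI44L, chr1:78620198-78620447, plus strand: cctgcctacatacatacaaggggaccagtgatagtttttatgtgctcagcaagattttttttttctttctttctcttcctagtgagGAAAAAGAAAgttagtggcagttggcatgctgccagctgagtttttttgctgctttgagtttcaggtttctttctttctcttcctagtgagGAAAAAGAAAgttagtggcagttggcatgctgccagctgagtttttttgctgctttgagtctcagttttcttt
IFI44, chr1:78649539-78649788, plus strand: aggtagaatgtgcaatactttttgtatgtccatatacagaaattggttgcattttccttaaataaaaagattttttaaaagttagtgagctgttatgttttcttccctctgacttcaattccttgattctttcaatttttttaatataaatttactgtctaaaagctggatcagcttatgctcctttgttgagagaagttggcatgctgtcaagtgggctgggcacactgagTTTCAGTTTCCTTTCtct
OAS1, chr12:112906712-112906961, plus strand: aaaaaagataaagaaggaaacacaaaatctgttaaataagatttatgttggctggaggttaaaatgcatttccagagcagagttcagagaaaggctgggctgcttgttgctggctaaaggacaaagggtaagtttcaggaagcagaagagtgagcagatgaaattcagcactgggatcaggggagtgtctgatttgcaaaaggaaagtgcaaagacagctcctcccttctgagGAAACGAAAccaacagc
IFITM1, chr11:313790-314039, plus strand: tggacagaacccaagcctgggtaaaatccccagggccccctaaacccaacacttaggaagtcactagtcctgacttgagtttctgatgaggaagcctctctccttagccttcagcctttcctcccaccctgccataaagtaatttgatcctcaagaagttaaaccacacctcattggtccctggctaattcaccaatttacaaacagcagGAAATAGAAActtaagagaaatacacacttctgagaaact
RIGI, chr9:32526197-32526446, minus strand: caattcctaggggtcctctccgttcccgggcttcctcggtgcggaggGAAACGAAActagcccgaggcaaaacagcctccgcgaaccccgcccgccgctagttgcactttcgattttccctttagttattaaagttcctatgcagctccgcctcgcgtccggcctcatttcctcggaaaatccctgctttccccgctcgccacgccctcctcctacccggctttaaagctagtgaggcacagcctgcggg
IFIH1, chr2:162318685-162318934, minus strand: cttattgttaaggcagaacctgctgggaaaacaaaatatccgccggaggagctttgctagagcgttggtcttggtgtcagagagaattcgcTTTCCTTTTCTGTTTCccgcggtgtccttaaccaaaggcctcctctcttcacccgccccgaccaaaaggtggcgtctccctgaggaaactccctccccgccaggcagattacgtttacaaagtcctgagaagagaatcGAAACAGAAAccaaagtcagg

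The IFI44L window held its core at 2 places, 164 and 73 bases before the start, because a stretch of 85 bases occurs there at 2 places with an offset of 91. IFI44, its neighbour on chromosome 1, held 1 core 18 bases before the start on the opposite strand, overlapped by a 1-base-spaced core. OAS1 and RIGI held the 1-base-spaced core and not the other, 17 and 203 bases before the start. IFIH1 held 3 cores, at 159, 153 and 21 bases before the start. IFITM1 held the core shown and another that begins 6 bases before the start and runs across it, which is not in capitals. RIGI and IFIH1 also each had a match to the kappa B consensus 76 bases before the start.

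Over the whole list, GAAANNGAAA occurred in 27 of 44 promoters (61.4%), of 23 genes, against 3.57% of the 35114 promoters of the same length in the table. The 1-base-spaced core occurred in 17 of 44 (38.6%) against 3.12%. Either form was present in 37 of 44 (84.1%), of 30 genes, against 6.4%. The 2 forms overlapped in some windows, as in IFI44 and SAMD9. The gamma-activated site TTCNNNGAA, the element of interferon gamma signalling, was in 22.7% against 7.66%, and it overlapped the core in some windows, as in IFITM1 and BST2. The kappa B consensus was in 18.2% against 11.3%. These genes were chosen as interferon-stimulated, so the share describes them, and a match of letters is not a site shown to be bound. Among the promoters of genes lowered by apigenin (below), 10 of 12 held either form (83.3%), close to the share of the whole list. The map of motif matches shows that most lie before the start, and that SAMD9L, HERC6 and the first listed starts of IFI16, PARP9 and CMPK2 have none.

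**Figure D1:**
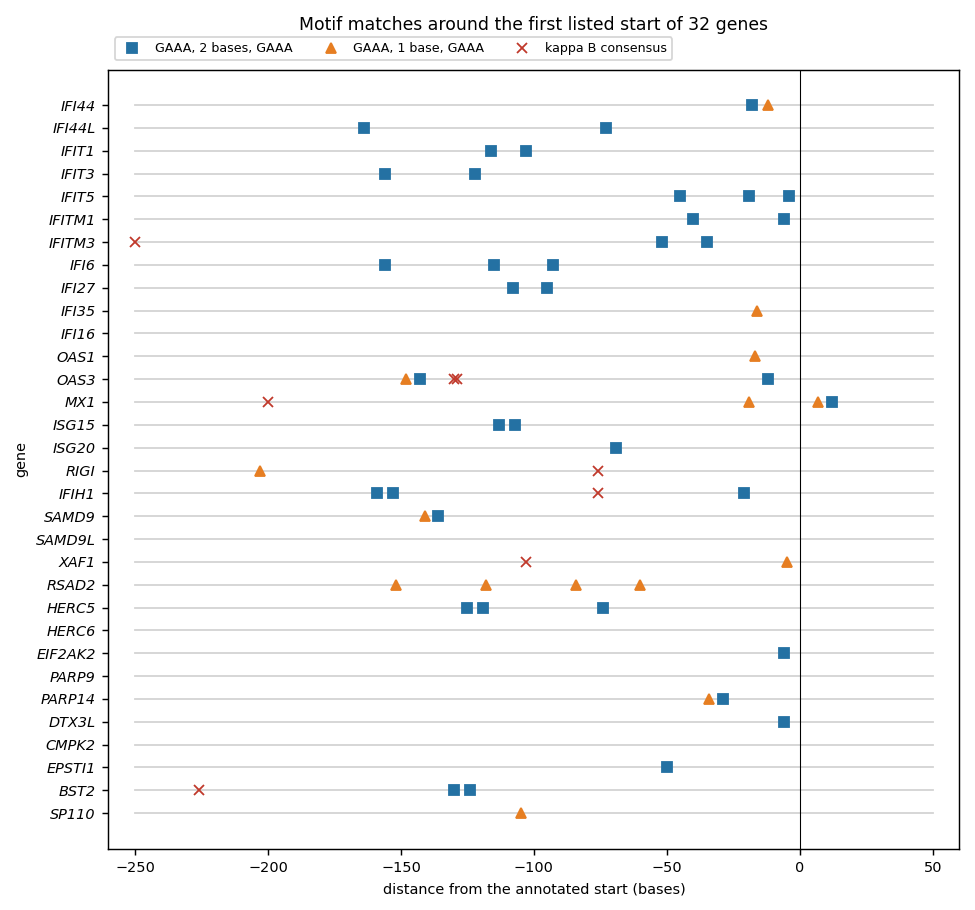
Positions of motif matches from 250 bases before to 50 bases after the first listed start of the 32 genes with a RefSeq promoter; squares are GAAA, 2 bases, GAAA, triangles are GAAA, 1 base, GAAA, and crosses are the kappa B consensus, on either strand. IFI44L shows 2 squares at 164 and 73 bases before the start, and RIGI and IFIH1 each show a cross at 76 bases before it.

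The arrays gave 1 value per probe set on a log2 scale. Background was taken as the median of all probe set means, 2.53, and testing a gene required 2 or more arrays to reach it. Levels of different genes are not compared, because probe sets differ in response. Within groups, pairs of arrays correlated at 0.969 to 0.987. Array apigenin 1 stood apart, with a median over tested genes of 3.89 and an interquartile range of 2.4, against medians of 4.08 to 4.32 on the other 10 arrays. The 4 TNF-responsive genes CCL2, CXCL8, TNFAIP3 and NFKBIA were higher with TNF, and the apigenin-responsive genes CYP1A1 and CYP1B1 were higher with apigenin alone. When apigenin was added to TNF these 2 did not pass, with changes of -0.017 ± 0.23 and 0.036 ± 0.16 (adjusted p = 0.992 and 0.977 in limma), and both were lower with TNF plus apigenin than with apigenin. All 6 markers of a breast epithelial line were above background. Of the markers of other cell types, 7 of 8 for leukocytes, 3 of 4 for fibroblasts and 1 of the 2 measured for endothelium lay below it. The other endothelial marker, CDH5, rose with TNF by 0.92 and fell with apigenin by 1.03. The mean of the 2 endothelial markers was 2.68 to 2.68 in control, 3.01 to 3.27 with TNF, 2.04 to 2.10 with apigenin and 2.44 to 2.66 with both. VWF was at 1.87 on average, below background, and CDH5 at 3.44, above it, so the 2 endothelial markers went different ways. The part of CDH5 in the results was not tested.

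The question set to these data was whether the genes raised by TNF and those lowered by apigenin are the same. TNF raised 2 of the 37 genes, IFI44L and RIGI, and lowered none. Apigenin lowered 9 and raised none: IFI44, IFI44L, IFITM1, MX1, OAS1, OAS2, SAMD9, SAMD9L and XAF1. IFI44L was in both lists, which is 50% of the first and 11.1% of the second. The 2 comparisons share the control arrays, so this overlap is a count and not a test. The same overlap over all genes tested was not counted. RIGI, the other gene raised by TNF, had a change of -0.71 ± 0.24 with apigenin alone (SE; adjusted p = 0.114 in limma). Of the 9 genes lowered by apigenin, 6 had a positive and 3 a negative change with TNF, with a median of 0.41 and a range from -0.38 to 1.16.

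These counts are read against all genes tested. In limma with Benjamini-Hochberg adjustment over all of them, at an adjusted p under 0.05, TNF against control called 0.473% of genes higher and 0.227% lower. Apigenin against control called 0.221% higher and 3.44% lower, so 9 of 37 (24.3%) stands beside 3.44%. At an unadjusted p under 0.05, 22 of the 37 genes were lower with apigenin and none higher, against 17.5% of all genes lower. All 37 changes with apigenin were below 0, against 72.3% of all genes. With TNF, 22 of 37 changes were above 0 (59.5%, against 41.6% of all genes) and 15 below. At an unadjusted p under 0.05, 7 were higher (18.9%, against 2.82% of all genes) and 1 lower (2.7%, against 4.59%). The 7 include IFIT1, which reached background on the TNF arrays alone and was tested only through them. The 3 genes left out for low values are not in these counts.

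The typical change was small with TNF and larger with apigenin. The median change of the 37 genes was 0.22 with TNF, against -0.043 for all genes, and it moved to -0.0062 when only genes with a mean of at least 4 were kept. With apigenin the median was -0.62, against -0.18 for all genes, which leaves -0.45 relative to the shift of all genes. The general shift depends on scaling. Of all genes called with apigenin, 94.0% were lower as deposited, 75.5% after quantile normalization and 70.7% after shifting each array to 1 median. Under those 2 scalings, 36 and 34 of the 37 changes remained below 0, and 9 and 5 genes were called lower. Without array apigenin 1, which leaves that group 1 array assumed to vary like the others, 3 genes were called lower: IFI44, IFI44L and SAMD9L. Without control 1 or without control 3 the count was 4. The median shift ended the calls of MX1, OAS1, OAS2 and SAMD9L, and quantile normalization that of MX1. Array weights ended those 4 and that of XAF1. With only the 2 compared groups in the fit, IFI44, SAMD9 and XAF1 were called. The call of OAS2 was also lost with no filter on low values and that of SAMD9L with the replicate block. In the other comparisons, the calls of IFI44L and RIGI with TNF, of IFIT1 and OAS1 on adding apigenin to TNF, and of IFIH1 and RIGI with both against apigenin were lost with only the 2 compared groups. The last pair was also lost with array weights. With no filter, the calls of RIGI with both against apigenin and of IFI44L with both against control were lost.

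**Figure D2:**
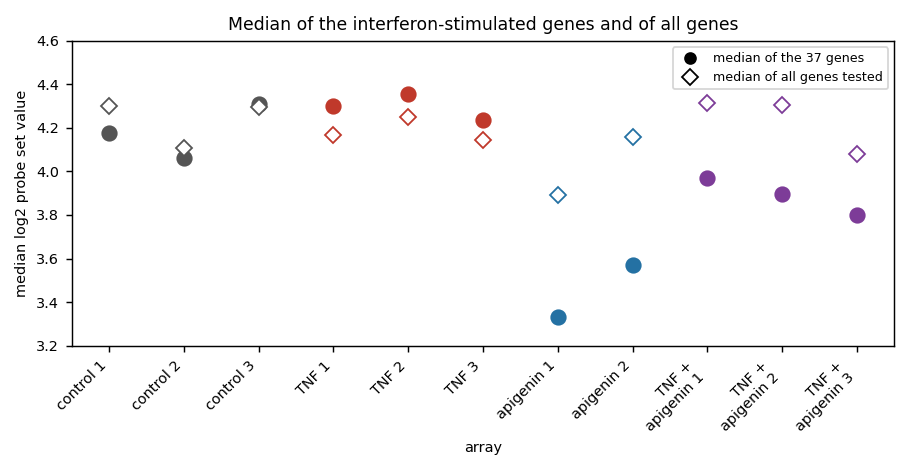
Median log2 value of the 37 tested genes (filled circles) and of all 15865 genes tested (open diamonds) on each of the 11 arrays. The gene list lies below the median of all genes on both apigenin arrays and all 3 TNF plus apigenin arrays, and above it on the 3 TNF arrays.

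The position of the list on each array shows the same contrast sample by sample. On the control arrays the median of the 37 genes minus that of all genes was -0.12, -0.046 and 0.014. With TNF it was 0.13, 0.11 and 0.096, with apigenin -0.56 and -0.59, and with both -0.35, -0.41 and -0.28. The 4 groups did not overlap in this measure. Apigenin 1, whose overall distribution was shifted, and apigenin 2 were alike in it. In bulk RNA, fewer cells expressing these genes and less RNA per cell cannot be told apart.

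Sensors and signalling proteins are the first role. RIGI encodes RIG-I, which recognises viral RNA by its triphosphate end, and was raised by TNF both without and with apigenin. Its value was 5.83, 5.33 and 5.67 in control, 7.0, 6.72 and 6.37 with TNF, 4.76 and 5.04 with apigenin, and 6.16, 6.32 and 5.77 with both. The TNF arrays all lay above the control arrays, the apigenin arrays all below them, and one array with both treatments lay within the control range. The rise with TNF was 1.09 ± 0.21, or 2.12-fold (adjusted p = 0.0293), and in apigenin-treated cells it was 1.18 ± 0.24, or 2.27-fold (adjusted p = 0.0409). The first call was lost without control 2, control 3, TNF 1 or TNF 2, with rises between 0.93 and 1.25 over all 11 such fits. The second was lost in 6 of 11, without control 1, control 3, TNF 2, apigenin 1, TNF plus apigenin 1 or TNF plus apigenin 2, with rises from 1.04 to 1.34.

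IFIH1, which encodes MDA5, the sensor of long double-stranded RNA, had a pattern like that of RIGI. It was measured at 5.48, 4.97 and 5.10 in control, 6.24, 6.21 and 5.83 with TNF, 4.22 and 4.61 with apigenin, and 5.79, 5.92 and 5.48 with both. No TNF array overlapped control, and no array with both treatments overlapped apigenin alone. In apigenin-treated cells TNF raised it by 1.31 ± 0.22, or 2.49-fold (adjusted p = 0.0139), a call lost without apigenin 1, TNF plus apigenin 1 or TNF plus apigenin 2 (1.12 to 1.51). Without apigenin the change was 0.91 ± 0.20 (adjusted p = 0.0548), and it was called under quantile normalization, median shift and array weights. The change with apigenin alone was -0.77 ± 0.22 (adjusted p = 0.0738).

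RIGI and IFIH1 were the only 2 of the 37 genes higher with TNF plus apigenin than with apigenin, where 0.529% of all genes were higher and 0.0441% lower. The median change of the list there was 0.43, against 0.16 for all genes, and 33 of 37 changes were above 0, against 70.9% of all genes. That count depends on scaling. It was 30 after quantile normalization and 24 after the median shift, where the share of all genes was not counted. The third receptor of the family, DHX58 (LGP2), which modulates the other two, had changes of 0.34 ± 0.19 with TNF and -0.21 ± 0.22 with apigenin, and passed in no comparison.

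No sensor or signalling gene passed for apigenin against control, although all 10 tested had negative changes (median -0.56). Of these, 5 were lower at an unadjusted p under 0.05 in limma (50%, against 17.5% of all genes). USP18, a protease that removes ISG15 and damps the interferon receptor, was 7.40, 6.73 and 7.08 in control but 5.29 and 6.67 on the 2 apigenin arrays. Those apigenin arrays differed from each other by more than any 2 control arrays did, and the change of -1.09 ± 0.34 did not pass (adjusted p = 0.0916). PARP9, which works with the ubiquitin ligase DTX3L to promote interferon signalling, changed by -0.76 ± 0.21 (adjusted p = 0.0608). DTX3L itself changed by -0.45 ± 0.21. ISG15, the ubiquitin-like modifier, and its ligase HERC5 had changes of -0.50 ± 0.29 and -0.19 ± 0.32. Changes of the other 2 signalling genes tested were -0.49 for HERC6 and -0.62 for PARP14, a mono-ADP-ribosyl transferase.

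**Figure D3:**
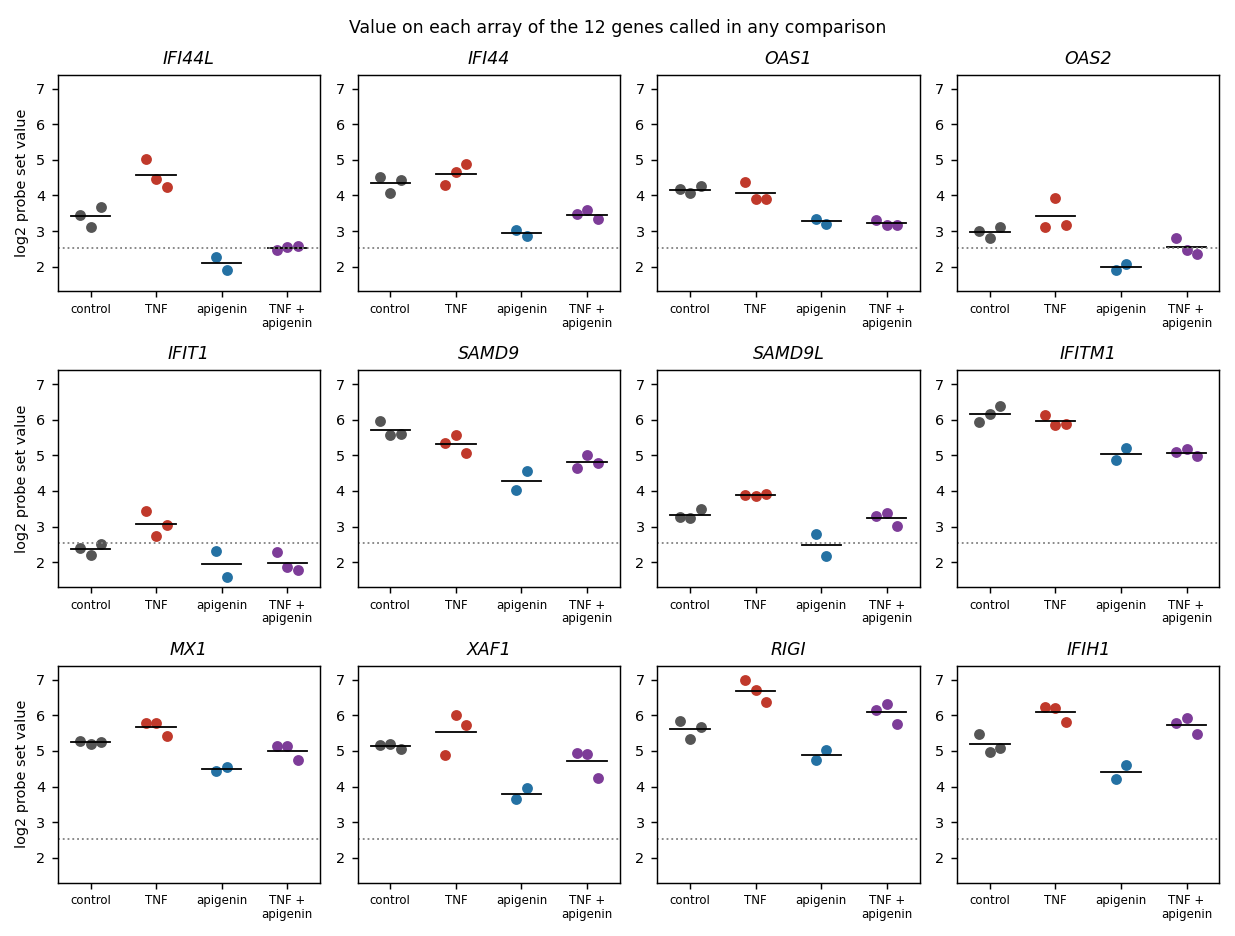
Log2 probe set value on each array of the 12 genes called in any comparison, by group; points are arrays, bars are group means and the dotted line is background (2.53). IFI44L and RIGI are higher with TNF than control, while IFI44, OAS1 and IFITM1 are lower in both groups with apigenin than in both groups without it.

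RNA-directed effectors are the second role, with 12 genes, of which apigenin alone lowered OAS1, OAS2, SAMD9 and SAMD9L. TNF alone raised none, with 3 higher at an unadjusted p under 0.05 in limma (25%, against 2.82% of all genes), IFIT1 among them. OAS1 encodes an enzyme that, on binding double-stranded RNA, makes oligoadenylates that activate RNase L. It was 4.18, 4.06 and 4.26 in control, 4.38, 3.90 and 3.90 with TNF, 3.33 and 3.21 with apigenin, and 3.32, 3.17 and 3.17 with both. Every array with apigenin lay below every array without it, whether or not TNF was present. OAS1 fell by 0.90 with apigenin (SE 0.19, adjusted p = 0.0207), by 0.84 when apigenin was added to TNF (SE 0.17, adjusted p = 0.0268) and by 0.95 with both against control (SE 0.17, adjusted p = 0.00803). The first call was lost without control 1, control 3 or apigenin 1 (-0.96 to -0.83), and the second in 5 of 11 fits (-0.92 to -0.68), those without TNF 1, TNF 2 or any array of both treatments. The third held in all 11.

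OAS2, which encodes another oligoadenylate synthetase, was 3.00, 2.82 and 3.12 in control and 3.12, 3.93 and 3.18 with TNF. With apigenin it was 1.91 and 2.08, below background, and with both 2.82, 2.46 and 2.35. It fell by 0.98 with apigenin (SE 0.24, adjusted p = 0.0384), and the groups did not overlap. That call was lost without control 1, control 3, either apigenin array or TNF plus apigenin 2 (-1.07 to -0.90). The related OAS3 and OASL had changes with apigenin of -0.27 ± 0.33 and -0.44 ± 0.24 and were not called. OAS3 was also 1 of the genes with the larger changes with TNF, 0.62 ± 0.29 (adjusted p = 0.677), where control 2 at 3.05 lay apart from 4.34 and 4.31.

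SAMD9 and SAMD9L are neighbours on chromosome 7 and encode related proteins that restrict poxviruses. SAMD9 was 5.96, 5.57 and 5.59 in control, 5.34, 5.57 and 5.07 with TNF, 4.02 and 4.55 with apigenin, and 4.66, 5.02 and 4.77 with both. Its value with apigenin alone was the lowest of the 4 groups, with no overlap. It fell by 1.42 with apigenin, or 2.68-fold (SE 0.23, adjusted p = 0.00373), a call lost without apigenin 1 (-1.16, adjusted p = 0.0713), and by 0.89 with both against control (SE 0.20, adjusted p = 0.0275), a call lost without control 1, control 3 or any array with both treatments (-0.99 to -0.77). The change when apigenin was added to TNF was -0.51 ± 0.20 (adjusted p = 0.334).

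SAMD9L was 3.26, 3.23 and 3.49 in control, 3.90, 3.86 and 3.92 with TNF, 2.80 and 2.17 with apigenin, and 3.31, 3.37 and 3.02 with both. The TNF arrays lay together above control, and the 2 apigenin arrays lay below control but apart from each other. SAMD9L fell by 0.84 with apigenin (SE 0.21, adjusted p = 0.0395), but the call was lost in 8 of 11 fits, all but those without control 2, apigenin 1 or TNF plus apigenin 3 (-1.16 to -0.53). The change with TNF was 0.56 ± 0.19 (adjusted p = 0.342), while that of SAMD9 was -0.38 ± 0.20 (adjusted p = 0.747).

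The IFIT genes form a cluster on chromosome 10 and encode proteins that bind viral RNA ends. IFIT1 was 2.39, 2.21 and 2.50 in control, 3.42, 2.72 and 3.05 with TNF, 2.31 and 1.59 with apigenin, and 2.30, 1.86 and 1.78 with both. Only the TNF arrays lay above background, so the gene was tested only through the group in which it was high. IFIT1 was lower by 1.09 when apigenin was added to TNF (SE 0.23, adjusted p = 0.0308), a call lost without TNF 1, TNF 3, TNF plus apigenin 2 or TNF plus apigenin 3 (-1.26 to -0.91) and with no filter on low values. That difference is set against a group mean of 1.98, below background, so its size depends on the background. Its changes with TNF alone, 0.70 ± 0.23 (adjusted p = 0.334), and apigenin alone, -0.42 ± 0.26 (adjusted p = 0.395), did not pass. IFIT2, IFIT3 and IFIT5 had changes of 0.41, 0.37 and 0.22 with TNF and of -0.37, -0.63 and -0.25 with apigenin, none called. The other effectors here, the exonuclease gene ISG20 and EIF2AK2, the gene of the kinase PKR, changed by -0.46 ± 0.19 and -0.22 ± 0.19 with apigenin, and were not called either.

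Membrane and GTPase effectors are the third role, with 7 genes tested. IFITM1 encodes a membrane protein that blocks fusion of enveloped viruses. It was 5.94, 6.16 and 6.38 in control, 6.14, 5.84 and 5.89 with TNF, 4.86 and 5.21 with apigenin, and 5.08, 5.17 and 4.98 with both. The 2 groups without apigenin overlapped each other, as did the 2 groups with it, and no array with apigenin reached an array without it. IFITM1 fell by 1.12 with apigenin, or 2.18-fold (SE 0.20, adjusted p = 0.0071), by 0.88 when apigenin was added to TNF (SE 0.18, adjusted p = 0.0239) and by 1.08 with both against control (SE 0.18, adjusted p = 0.00349). The first call was lost without apigenin 1 (-0.95, adjusted p = 0.0944) and the second without any 1 of the 6 arrays compared (-0.94 to -0.79). The third held in all 11 fits.

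IFITM2 and IFITM3, its neighbours on chromosome 11, which act at endosomes, were not called. IFITM2 was 5.26, 5.67 and 5.29 in control, 4.16, 4.78 and 4.38 with TNF, 4.04 and 4.80 with apigenin, and 4.94, 4.05 and 4.21 with both. All 3 treated groups lay below control and overlapped one another. The changes were -0.96 ± 0.26 with TNF (adjusted p = 0.167), -0.99 ± 0.29 with apigenin (adjusted p = 0.0757) and -1.0 ± 0.26 with both (adjusted p = 0.055). IFITM3 changed by -0.40 ± 0.21 with TNF and -0.48 ± 0.23 with apigenin.

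MX1 encodes a dynamin-like GTPase that traps viral nucleocapsids. It was 5.28, 5.19 and 5.25 in control, 5.79, 5.79 and 5.43 with TNF, 4.43 and 4.56 with apigenin, and 5.15, 5.13 and 4.73 with both. The 4 groups fell in the order TNF, control, both, apigenin, without overlap. MX1 fell by 0.75 with apigenin (SE 0.20, adjusted p = 0.0478), a call lost in 10 of 11 fits (-0.81 to -0.69) and kept only without TNF plus apigenin 3. It was also lost under both rescalings. The changes of MX1 with TNF, 0.43 ± 0.17 (adjusted p = 0.541), and when apigenin was added to TNF, -0.67 ± 0.17 (adjusted p = 0.0972), did not pass.

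The remaining genes of this role were RSAD2, which encodes viperin, an enzyme that makes a chain-terminating nucleotide, its neighbour CMPK2, and BST2, which encodes tetherin. Their changes with apigenin were -0.61 ± 0.23, -0.44 ± 0.30 and -0.73 ± 0.28, with no call. BST2 was at 3.35, 2.59 and 3.05 in control and 2.46 and 2.08 with apigenin, which crosses the background level.

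The fourth role holds interferon-induced genes of other or less settled function, 8 of them tested. IFI44L, a marker of interferon exposure in blood, was the gene at which both treatments met. It was 3.45, 3.12 and 3.66 in control, 5.02, 4.45 and 4.24 with TNF, 2.28 and 1.92 with apigenin, and 2.46, 2.56 and 2.57 with both. TNF arrays lay above control and both apigenin-containing groups below it, near or under background. IFI44L rose by 1.16 ± 0.21 with TNF, or 2.23-fold (adjusted p = 0.0191), and fell by 1.31 with apigenin (SE 0.24, adjusted p = 0.00893). When apigenin was added to TNF it fell by 2.04 (SE 0.21, adjusted p = 0.000279), which was the largest fall of the 37 genes in any comparison, and with both it lay below control by 0.88 (SE 0.21, adjusted p = 0.0396). Because the apigenin values sit at background, these falls are given without a fold.

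The rise of IFI44L with TNF was lost without control 1, control 2, TNF 1 or TNF 2 (0.93 to 1.32), while its falls with apigenin (-1.49 to -1.13) and on adding apigenin to TNF (-2.21 to -1.82) held in all 11 fits. With only the 2 compared groups in the fit, the calls with TNF and with apigenin were lost. The difference of both treatments from control was lost in 6 (-1.03 to -0.76), those without control 1, control 3, TNF 2 or any array of both treatments. Its TNF effect with apigenin was 0.43 ± 0.24, and the interaction, the TNF effect with apigenin minus that without, was -0.73 ± 0.32 (adjusted p = 0.606).

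IFI44 encodes a paralogue of IFI44L and had no call with TNF. It was 4.51, 4.08 and 4.42 in control, 4.30, 4.65 and 4.87 with TNF, 3.03 and 2.86 with apigenin, and 3.48, 3.58 and 3.33 with both. Control and TNF arrays overlapped, and all 5 arrays with apigenin lay below all 6 without it. IFI44 fell by 1.39 with apigenin, or 2.62-fold (SE 0.21, adjusted p = 0.00305), and by 1.14 when apigenin was added to TNF, or 2.21-fold (SE 0.19, adjusted p = 0.00709), and both calls held in all 11 fits. With both against control it fell by 0.87 (SE 0.19, adjusted p = 0.0209), a call lost without control 1, control 3 or any array with both treatments (-1.0 to -0.79).

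XAF1, which antagonises the apoptosis inhibitor XIAP, was 5.16, 5.19 and 5.06 in control, 4.89, 6.01 and 5.73 with TNF, 3.65 and 3.96 with apigenin, and 4.95, 4.93 and 4.24 with both. The TNF arrays spread on both sides of control. XAF1 fell by 1.33 with apigenin, or 2.52-fold (SE 0.29, adjusted p = 0.0222), a call lost without control 1, control 3 or apigenin 1 (-1.49 to -1.18). IFI6, a mitochondrial and endoplasmic reticulum protein gene, changed by -0.84 ± 0.30 with apigenin (adjusted p = 0.131). TRIM22 and SP110, nuclear proteins with antiviral roles, changed by -0.67 ± 0.27 and -0.55 ± 0.17, and SP110 was called under quantile normalization. IFI27 was near background in every group, and IFI35 changed by -0.23 ± 0.27.

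**Figure D4:**
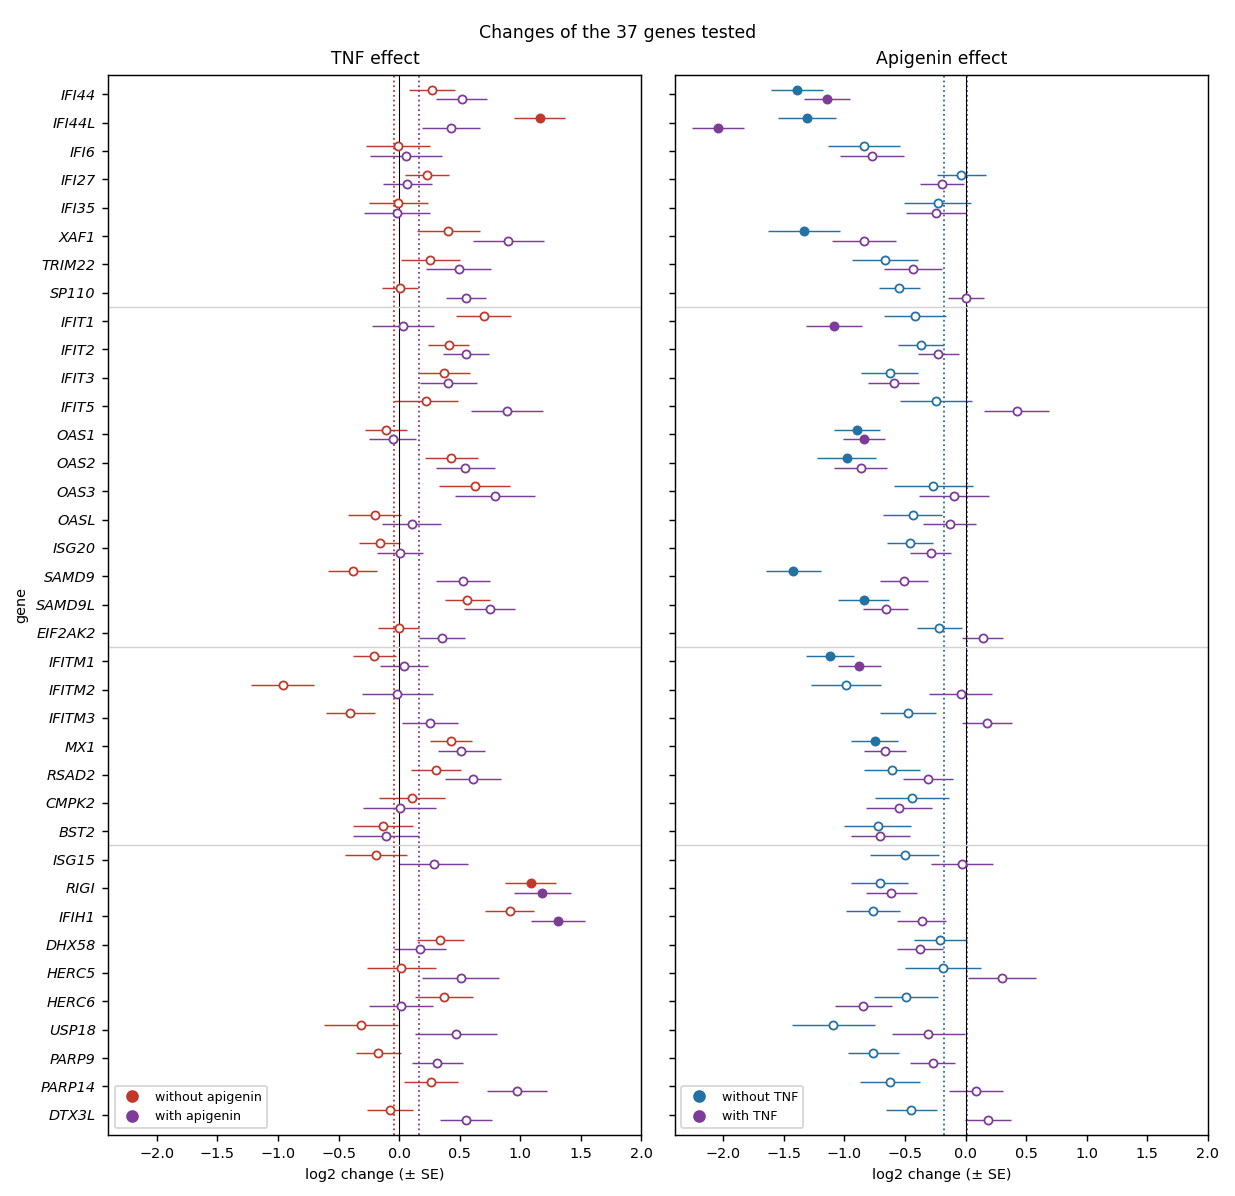
Log2 change ± SE of each of the 37 tested genes for TNF (left, without and with apigenin) and apigenin (right, without and with TNF), grouped by role; filled points are called at an adjusted p under 0.05 and dotted lines are the medians of all genes. Every change with apigenin alone lies left of 0, and IFI44L has both the largest rise with TNF alone and the largest fall when apigenin is added to TNF.

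Adding apigenin to TNF lowered 5 of the 37 genes, IFI44, IFI44L, IFIT1, IFITM1 and OAS1, and raised none, where 0.681% of all genes were lower and 0.384% higher. Without IFIT1, which was above background with TNF alone, the count was 4. At an unadjusted p under 0.05, 15 of the 37 were lower, IFIT1 among them, and none higher, against 5.2% of all genes lower. The median was -0.36, against 0.015 for all genes, and 30 of 37 changes were below 0, against 47.6%. This comparison and apigenin against control use separate arrays. The genes lowered in both were IFI44, IFI44L, IFITM1 and OAS1, which is 44.4% of the 9 and 80% of the 5. The overlap of these 2 comparisons over all genes tested was not counted. All 9 genes lowered by apigenin alone also had negative changes here, from -2.04 to -0.51. Of the 2 genes raised by TNF, IFI44L was among the 5 and RIGI, with -0.61 ± 0.21 (adjusted p = 0.252), was not. The count of 5 became 10 after quantile normalization and 8 after the median shift, and 3, 3, 3, 3, 2 and 2 when TNF 1, TNF 2, TNF 3 and the 3 arrays of both treatments were left out in turn.

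Across the 37 genes, the apigenin effects without and with TNF had a Pearson r of 0.62 and a Spearman rho of 0.60, against an r of 0.46 over all genes. The TNF effects without and with apigenin had an r of 0.54 and a rho of 0.51, against 0.36. These compare separate arrays, and the genes are not independent replicates. Of the 37, 30 were below 0 in both apigenin comparisons and 7 were opposite in sign, while 22 were above 0 in both TNF comparisons, 4 below and 11 opposite. Of the 15865 genes tested, 6105 were below 0 in both apigenin comparisons and 5170 above 0 in both TNF comparisons.

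With both treatments against control, 5 genes were lower and none higher in limma, where 1.78% of all genes were lower and 1.04% higher. At an unadjusted p under 0.05, 10 were lower (27.0%, against 8.79% of all genes) and 3 higher (8.11%, against 7.15%). The 5 genes were IFI44, IFI44L, IFITM1, OAS1 and SAMD9. RIGI and IFIH1 had changes of 0.47 ± 0.21 (adjusted p = 0.294) and 0.55 ± 0.20 (adjusted p = 0.181), neither called. The largest positive change was that of an effector gene, IFIT5, at 0.64 ± 0.27 (adjusted p = 0.247 in limma), also not called. Changes went both ways within these roles. Of the 10 sensor and signalling genes tested, 5 were above 0 and 5 below, and of the 12 RNA-directed effectors, 4 and 8. The median was -0.24, against -0.025 for all genes. The count was 2 without control 1, control 3, TNF plus apigenin 2 or TNF plus apigenin 3.

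No gene of the list was called for the interaction, where 0.0252% of all genes were. At an unadjusted p under 0.05, 5 were higher (SAMD9, IFITM2, PARP14, DTX3L and SP110, from 0.55 to 0.95) and IFI44L was lower, with adjusted p in limma from 0.529 to 0.612. These are 13.5% and 2.7% of the list, against 7.14% higher and 1.02% lower of all genes. The median interaction of the list was 0.23, that of all genes also 0.23. Of the 37 interactions, 30 were above 0 (81.1%, against 76.1% of all genes). That count was 24 after quantile normalization and 16 after the median shift, so the sign of the interactions depends on scaling.

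The 40 genes lie in 26 loci on 16 chromosomes, when genes with at most 1 protein-coding gene between them count as 1 locus. The 9 loci with several members hold 23 of the genes. Among neighbours, the change with TNF was 1.16 ± 0.21 for IFI44L and 0.27 ± 0.19 for IFI44, and the change with apigenin was -1.12 ± 0.20 for IFITM1, -0.99 ± 0.29 for IFITM2 and -0.48 ± 0.23 for IFITM3. Differences between neighbours were not tested. Neighbouring genes can also share regulation or sequence, so members of a locus are not independent observations.

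Upstream genes of the pathway were taken from further lists, whose counts stand beside 0.473% of all genes higher with TNF, 3.44% lower with apigenin, 0.681% lower on adding apigenin to TNF and 0.529% higher on adding TNF to apigenin. The calls of these genes were not run under other settings. Of 14 genes for interferons and their receptors, 9 were tested. IFNB1, IFNA1, IFNE, IFNK and IFNG were not, as they lay near or below background, and IFNB1 ranged from 1.76 to 2.45 over the 11 arrays. The receptor gene for interferon gamma, IFNGR1, was 6.23, 6.03 and 6.25 in control and 7.40, 7.32 and 7.25 with TNF, and rose by 1.16 ± 0.16 (adjusted p = 0.00179). It rose with TNF in apigenin-treated cells as well, by 1.38 ± 0.18 (adjusted p = 0.00226), as did IFNGR2, by 1.13 ± 0.19 (adjusted p = 0.0139). With both treatments against control IFNGR1 was higher by 0.82 ± 0.16 (adjusted p = 0.0131). No gene of this list passed for apigenin alone in limma, where 4 were lower at an unadjusted p under 0.05 (44.4%, against 17.5% of all genes).

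Among 14 tested genes of JAK, STAT and IRF signalling, apigenin lowered IRF9, and TNF changed none, also at an unadjusted p under 0.05 in limma (0 genes). IRF9, a DNA-binding transcription factor of the interferon response, was 5.10, 5.19 and 5.00 in control, 5.17, 5.03 and 4.78 with TNF, 4.20 and 4.44 with apigenin, and 4.58, 4.07 and 4.10 with both. It fell by 0.78 with apigenin (SE 0.21, adjusted p = 0.0496) and by 0.85 with both (SE 0.18, adjusted p = 0.0217). IRF9 had 2 probe sets, and only the one with the highest mean is given here.

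Of 9 tested adaptors and sensors of nucleic acids, apigenin lowered 3 (3.44% of all genes were lower) and TNF raised 1 (0.473% were higher). MAVS, the mitochondrial adaptor of RIG-I and MDA5, was 6.52, 6.32 and 6.38 in control and 5.46 and 5.53 with apigenin, and fell by 0.91 (SE 0.20, adjusted p = 0.0222). TLR3, the endosomal sensor of double-stranded RNA, fell by 1.32 (SE 0.21, adjusted p = 0.00364), and STING1, the adaptor of cytosolic DNA sensing, by 0.93 (SE 0.20, adjusted p = 0.0197). IKBKE, a kinase that phosphorylates IRF3, was 4.48, 4.05 and 4.05 in control and 6.15, 5.97 and 5.97 with TNF, a rise of 1.84 ± 0.19 (adjusted p = 8.54e-05), and fell by 0.96 when apigenin was added to TNF (SE 0.19, adjusted p = 0.0216). TRAF3, which links MAVS to these kinases, was higher by 1.60 ± 0.27 with TNF in apigenin-treated cells (adjusted p = 0.0139), as was IKBKE by 1.56 ± 0.21 (adjusted p = 0.00271). With both treatments against control, MAVS fell by 0.99 (SE 0.18, adjusted p = 0.00765) and STING1 by 0.87 (SE 0.18, adjusted p = 0.0145), while IKBKE rose by 0.88 ± 0.19 (adjusted p = 0.0221) and TRAF3 by 0.99 ± 0.24 (adjusted p = 0.0424).

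A further 32 interferon-stimulated genes outside the list were tested. TNF raised CXCL10, a T cell chemokine, and GBP1, a guanylate-binding GTPase, and apigenin lowered TNFSF10, which encodes the death ligand TRAIL, and HELZ2, a helicase. CXCL10 was 2.64, 2.21 and 2.4 in control, 7.27, 7.56 and 7.16 with TNF, 2.26 and 2.63 with apigenin, and 5.21, 5.44 and 5.32 with both. Control and apigenin means lay below background, so its rises with TNF depend on that background. It fell by 2.01 when apigenin was added to TNF (SE 0.18, adjusted p = 8.63e-05), but stayed 2.91 ± 0.18 above control (adjusted p = 4.8e-07). TNFSF10 was 8.44, 8.51 and 8.31 in control and 7.09 and 7.10 with apigenin, and fell by 1.33 (SE 0.20, adjusted p = 0.00305). HELZ2 was 3.42, 3.42 and 3.18 in control and 2.33 and 2.42 with apigenin, and fell by 0.96 (SE 0.24, adjusted p = 0.0405).

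GBP1 was 3.66, 2.50 and 3.74 in control, 4.93, 5.08 and 4.99 with TNF, 2.61 and 2.53 with apigenin, and 4.53, 4.71 and 4.33 with both. It rose by 1.70 ± 0.26 with TNF (adjusted p = 0.00373) and by 1.96 ± 0.29 with TNF in apigenin-treated cells (adjusted p = 0.00518), from values that reached background. In the latter comparison PSMB9, an immunoproteasome subunit gene, also rose, by 0.98 ± 0.21 (adjusted p = 0.0494). PSMB9 had 4 probe sets, and only the one with the highest mean is given here. With both treatments against control, SLFN5, a nuclear protein gene of the Schlafen family, was higher by 1.22 ± 0.21 (adjusted p = 0.00593) and GBP1 by 1.23 ± 0.26 (adjusted p = 0.0195). TNFSF10 fell by 1.13 when apigenin was added to TNF (SE 0.18, adjusted p = 0.00564) and by 1.31 with both against control (SE 0.18, adjusted p = 0.00105). The median of these 32 genes was -0.47 with apigenin, against -0.62 for the 37 above and -0.18 for all genes. With apigenin 28 of the 32 changes were below 0 (87.5%, against 72.3% of all genes). With TNF the median of the 32 genes was 0.16, with 23 of 32 above 0 (71.9%, against 41.6% of all genes).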

How the data were processed

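The deposited log2 values of 53617 probe sets (GeneChip Human Gene 2.1 ST arrays, total RNA) were produced by the authors in Affymetrix Expression Console (tool named in the submitters' processing notes). Version, algorithm and build were not stated in the sources used here. The log base was inferred from the range, 0.38 to 12.31. No depth applies, and the number of arrays limits the precision. The array's annotation gave 1 symbol to 23871 probe sets, several to 1842 and none to 27904, and 22569 of the first were matched to RefSeq, which updated 90 symbols. This gave 22395 genes, of which 632 had several probe sets and were represented by the one with the highest mean. Genes with at least 2 arrays at or above 2.53 were tested (15865). Groups came from the sample titles. The titles speak of triplicates, and apigenin has 2 arrays here.

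limma 3.58.1 in R 4.3.3 (lmFit, eBayes, 1 mean per group, 11 arrays, 7 residual degrees of freedom) gave two-sided p-values, adjusted by Benjamini-Hochberg over all genes tested and called under 0.05. Changes carry moderated standard errors (SE). The fit was tested on simulated data. Members, lists, roles and tests were chosen with earlier results of these data known. All members called in any comparison were named with the value on every array, the others by role with the largest changes, and of further lists the called genes. Alternatives were other scalings, filters, weights, groups in the fit, a replicate block and leaving out each array.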

Additional observations from a re-analysis of the deposited data

Results flagged for a closer look

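The TNF effect on CXCL10 differed between cells with and without apigenin. The TNF effect with apigenin minus that without it was -2.03 on the log2 scale (limma interaction over all genes), from a rise of 4.92 ± 0.18 (SE) without apigenin to 2.88 ± 0.20 with it. The means in control (2.42) and with apigenin (2.44), from which these rises are taken, lie below background (2.53), so the rises and their difference depend on that background. The adjusted p of the interaction was 0.0183. CXCL10 is an interferon-stimulated chemokine outside the list of 40, and no gene of the list passed this test.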

How the results depend on the processing

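None of the 23 calls of genes of the list changed direction under the settings tried; calls of genes outside it were not run under them. Averaging the probe sets of a gene changed none of the counts below. The genes called higher with TNF (2) numbered 0 with only the 2 compared groups in the fit, 0 without control 2 and apigenin 1 together, an alternative chosen after seeing the data, and 0 to 3 when 1 array was left out. The genes lowered by apigenin (9) numbered 5 after the median shift, 4 with array weights, 3 with only the 2 groups, 3 without control 2 and apigenin 1, and 3 to 10 with 1 array left out. The genes lowered when apigenin was added to TNF (5) numbered 10 after quantile normalization, 8 after the median shift, 8 with array weights, 3 with only the 2 groups, 1 among genes with a mean of at least 4, and 2 to 6 with 1 array left out. With both treatments against control, the lower genes (5) numbered 3 at a mean of at least 4 and 2 to 6 with 1 array left out, and 1 gene, IFIH1, was higher after quantile normalization and 1, the same gene, with array weights. With TNF plus apigenin against apigenin, the higher genes (2) numbered 1 with no filter, 0 with array weights, 0 with only the 2 groups, 0 without control 2 and apigenin 1, and 0 to 3 with 1 array left out. The gene both raised by TNF and lowered by apigenin (1) numbered 0 with only the 2 groups, 0 without control 2 and apigenin 1, and 0 to 2 with 1 array left out. It was 0 without control 1, control 2, TNF 1 or TNF 2, and 2, IFI44L and IFIH1, without apigenin 2. The fits with only the 2 groups have fewer arrays, and the stricter filter tests fewer genes. For the other settings the cause was not tested.

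The median change with TNF (0.22) was 0.0952 with no filter, -0.00621 at a mean of at least 4, 0.0896 without control 2 and apigenin 1, and 0.0896 to 0.219 with 1 array left out, the lowest without control 2. The median with apigenin (-0.62) was -0.502 after quantile normalization, -0.412 after the median shift, -0.730 at a mean of at least 4, and -0.783 to -0.562 with 1 array left out. The median of TNF plus apigenin against apigenin (0.43) was 0.271 after quantile normalization, 0.222 after the median shift, 0.293 without control 2 and apigenin 1, and 0.293 to 0.516 with 1 array left out.

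Over all genes called with TNF, 32.4% were lower as reported and 47.5% with array weights. When apigenin was added to TNF these shares were 63.9% and 43.5%. For the TNF plus apigenin against apigenin comparison they were 7.69% as reported, 18.8% after quantile normalization and 19.5% after the median shift. A replicate block, with the replicate number as a term, gave 2 genes raised by TNF, 9 lowered by apigenin (8 shared, IFIH1 in place of SAMD9L), 5 lowered when apigenin was added to TNF, 5 lowered by both, 2 raised by TNF in apigenin-treated cells and 0 for the interaction. The labels do not say whether the numbers pair the arrays. Over 15 pairs of arrays with 1 number, correlations of deviations from group means ran from -0.240 to 0.275 (median 0.023), and 4 exceeded 0.1. Over 30 pairs with different numbers they ran from -0.392 to 0.193 (median -0.017), and 8 exceeded 0.1. Deviations within a group of 2 or 3 arrays sum to 0, so these correlations cannot decide whether arrays are paired. Signal over background limits the list most with apigenin, where 13 of 40 genes had a mean at or below 2.53, against 7 in control.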
